A study of Homo sapiens with 24 samples.

Results

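This section describes how gene expression differed between A549 cells overexpressing GPD1 and vector control cells, both in metformin. A549 is an established human lung cancer line. The cells carried either a lentivirus for GPD1 overexpression or a blank vector lentivirus, and both were kept in medium with 10 mM metformin, a biguanide used against diabetes. The genes described are the 12607 of 58302 in the table whose level, averaged over the 12 A549 libraries, reached 1 FPKM. FPKM is a fragment count scaled to transcript length and library size, so levels of different genes can be compared per unit of length.

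The series holds 24 samples, 12 of A549 and 12 of the kidney cancer line 786-O, which are not used here. The A549 samples form 4 groups of 3 labelled replicates, namely vector and GPD1 cells with 0 mM metformin and vector and GPD1 cells with 10 mM. The comparison with the drug rests on 6 of these libraries, and the other 6 compare GPD1 with vector cells without it. All 4 groups carry a lentivirus, so none is unmodified A549. The labels do not say which promoter drives GPD1, whether each line is a pool or 1 clone, how long the drug was given, or whether replicates were separate cultures. The p-values are therefore set against a spread between libraries that may be only technical, and a difference between vector and GPD1 cells cannot be told apart from a difference between 2 transduced lines.

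GPD1 is a glycerol-3-phosphate dehydrogenase of the cytosol. It turns dihydroxyacetone phosphate and NADH into glycerol-3-phosphate and NAD+, which makes it the cytosolic side of the glycerol-3-phosphate shuttle and a source of the backbone of glycerolipids. GPD2, on the mitochondrial inner membrane, is the other side of the shuttle and passes the electrons to ubiquinone. Metformin is known to inhibit complex I of the respiratory chain and has been reported to inhibit GPD2. A549 lacks a working LKB1, the main kinase upstream of AMPK, and has an inactive KEAP1, which leaves the antioxidant regulator NRF2 active.

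The transgene was read first. GPD1 (chr12:50103819-50111319, GRCh38) stood at 0.0662, 0.0702 and 0.0248 FPKM in the 3 vector libraries with metformin and at 13.3, 13.8 and 13.3 FPKM in the 3 GPD1 libraries with it. Every GPD1 library lay far above every vector library. The means differed 251-fold, and the log2 fold change on the log2(FPKM + 1) scale was 3.78 ± 0.05 (standard error, adjusted p = 6.9e-12, limma). Without the drug the levels were 0.0873, 0.103 and 0.0408 FPKM and 15.7, 16.8 and 15.1 FPKM, and the difference did not pass the test of a change with the drug (adjusted p = 0.0523 for the interaction).

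Under metformin 7566 of the 12607 genes (60.0%) passed limma's test at an adjusted p under 0.05, 3157 of them higher (25.0%) and 4409 lower (35.0%) in GPD1 cells. Most changes were modest, with a median absolute log2 fold change of 0.30 and a median over all genes of -0.05. Changes of at least 1 log2 unit were called for 191 genes that were higher (1.52%) and for 758 that were lower (6.01%), together 7.53%. The 3 libraries of each group did not overlap for 64.8% of genes, 27.7% higher and 37.1% lower. Genes named for the largest fold changes were picked from these, so their lack of overlap was fixed by the choice and is no added result. In bulk libraries, fewer cells making a transcript and less of it per cell cannot be told apart. Among the genes with a mean of 100 FPKM or more, 54.0% were higher and 17.4% lower, whereas among those between 1 and 5 FPKM 19.9% were higher and 34.6% lower. The split also depends on the scaling: with upper-quartile factors 54.4% of the calls were higher, against 41.7% as deposited, and the all-gene median moved by 0.10. Once a trend with gene length or GC content was removed, alternatives chosen after seeing the data, the share was 54.3% and 55.0%. Among genes of up to 1750 bases 24.4% were lower and among those of at least 7488 bases 44.2%, and the part of length in the results was not tested. Medians of gene lists are therefore also given relative to that of all genes, and a list called at about 25.0% higher and 35.0% lower does not stand apart from the rest.

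The libraries of the metformin groups held 14.5 to 18.0 M fragments with vector and 14.6 to 17.3 M with GPD1, as recovered from the steps between low values. GPD1 libraries listed fewer genes above 0, 23472 to 23993 against 24688 to 25099 (exact permutation test, 2-sided p = 0.1, the smallest that 3 against 3 allows). Transcripts of the mitochondrial genome took 10.3% to 11.4% of the summed FPKM in GPD1 libraries and 13.7% to 14.9% in vector libraries. Genes of the A549 and lung epithelium list summed to 5586 to 5998 FPKM with GPD1 and to 3183 to 3270 FPKM with vector. Most of this came from the enzyme genes ALDH1A1, with means of 3269.8 and 1435 FPKM, and AKR1B10, with 1173 and 783 FPKM. Of the 10 tested members 8 were higher (80%), beside 25.0% of all genes. Without the drug 8 were higher too, and the sums were 6281 to 6391 FPKM with GPD1 and 5077 to 5133 FPKM with vector. The airway and surfactant genes SFTPB, SFTPC and NKX2-1 were at or near 0 in both groups. Of 12 immune and stromal markers, PTPRC, CD3E, CDH5 and DCN were among those listed at 0 in all 6 libraries, while CD14, a monocyte surface receptor, had means of 0.129 FPKM with vector and 8.36 FPKM with GPD1. The only other tested marker, CD68, was lower (log2 fold change -0.35), a call lost under several alternatives. The summed markers also differed without the drug, at 2.48 to 3.56 FPKM with vector and 9.09 to 13.5 FPKM with GPD1. Summed kidney markers were 11.8 to 12.9 FPKM with vector and 11.5 to 12.7 FPKM with GPD1, but single members differed. Of the 4 tested, 1 was higher, CDH6 (log2 fold change 1.07), and 2 were lower. The part of these differences in the results was not tested.

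Inducible heat shock genes rose. Of the protein-coding genes that averaged 5 FPKM or more, HSPA1B and HSPA1A had the largest log2 fold changes, although with a pseudocount of 0.1 in place of 1 GPD1 lay above them (6.48). HSPA1A and HSPA1B encode nearly identical inducible HSP70 chaperones, HSPA6 a further inducible HSP70 and HSPB1 the small chaperone HSP27. All are classical targets of the heat shock factor HSF1, which binds inverted repeats of GAA such as GAANNTTC. The 250 bases before the start of the 4 genes are shown because these genes rose together and share that element, which is in capitals. They are from RefSeq (GRCh38.p14, plus strand), at chr6:31815293-31815542, chr6:31827488-31827737, chr1:161524290-161524539 and chr7:76302423-76302672.
HSPA1A: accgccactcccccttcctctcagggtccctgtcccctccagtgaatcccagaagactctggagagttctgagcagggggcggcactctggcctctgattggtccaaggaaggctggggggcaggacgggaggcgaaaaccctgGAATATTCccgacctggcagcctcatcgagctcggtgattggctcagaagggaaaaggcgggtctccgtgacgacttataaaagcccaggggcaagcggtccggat
HSPA1B: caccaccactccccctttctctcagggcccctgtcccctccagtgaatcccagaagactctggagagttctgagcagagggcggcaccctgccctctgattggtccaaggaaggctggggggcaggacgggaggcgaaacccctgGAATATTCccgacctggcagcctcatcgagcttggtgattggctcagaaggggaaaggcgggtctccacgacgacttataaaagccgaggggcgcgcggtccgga
HSPA6: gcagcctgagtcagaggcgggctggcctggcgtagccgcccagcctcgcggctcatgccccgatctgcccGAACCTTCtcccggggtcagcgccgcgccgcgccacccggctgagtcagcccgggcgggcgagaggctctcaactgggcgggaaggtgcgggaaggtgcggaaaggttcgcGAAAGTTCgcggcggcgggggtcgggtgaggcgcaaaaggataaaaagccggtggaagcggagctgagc
HSPB1: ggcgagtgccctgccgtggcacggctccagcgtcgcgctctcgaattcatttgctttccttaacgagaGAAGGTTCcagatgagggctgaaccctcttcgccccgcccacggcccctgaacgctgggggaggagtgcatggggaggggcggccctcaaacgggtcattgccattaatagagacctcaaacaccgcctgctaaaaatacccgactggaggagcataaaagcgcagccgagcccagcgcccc

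The element begins 106 bases before the start in HSPA1A, 105 in HSPA1B, 182 in HSPB1, and 180 and 69 in HSPA6. Of the aligned bases, 93.6% are identical between the windows of HSPA1A and HSPA1B, so the pair is close to identical before the start as well. In windows from 250 bases before to 50 after the start, GAANNTTC, which reads the same on both strands, occurred in 8 of 18 promoters of the cytosolic heat shock list (44.4%) and in 6.87% of all 27305 promoters in the table. Among tested genes with a promoter it occurred in 4.71% of those higher and 3.78% of those lower in GPD1 cells, against 4.50% of all 8335. A match to these letters describes the window and is not a shown site.

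HSPA1A (chr6:31815464-31817946) read 23.8, 31.2 and 55.5 FPKM in vector and 741, 632 and 584 FPKM in GPD1 libraries. HSPA1B (chr6:31827735-31830255) read 6.99, 10.2 and 18.2 FPKM and 271, 223 and 208 FPKM. The groups did not overlap for either gene, although the vector libraries themselves varied more than 2-fold. Means were 17.7-fold and 19.8-fold higher, with log2 fold changes of 4.19 ± 0.23 (adjusted p = 1.0e-07) and 4.28 ± 0.24 (adjusted p = 1.3e-07). Reads that fit both genes may have been split between them in a way the table does not show. HSPA6 went from 0.594, 0.352 and 0.696 FPKM to 9.50, 7.12 and 7.30 FPKM, and HSPB1 from 165, 178 and 189 FPKM to 491, 444 and 412 FPKM. Without metformin the same 4 genes differed by log2 -0.06, -0.10, -0.06 and 0.26, and the difference between the conditions was called for each, with adjusted p of 3.8e-06, 4.3e-06, 1.2e-06 and 8.5e-06.

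The rest of the heat shock list had no single direction. Of 20 tested members, these 4 included, 8 were higher (40.0%) and 6 lower (30%), beside 25.0% and 35.0% of all genes, and the median was 0.09, a value whose sign turns under another scaling (range -0.01 to 0.23). The DNAJA1 cochaperone fell from 39.0 ± 2.32 to 24.01 ± 1.48 FPKM (mean ± SD, n = 3, log2 fold change -0.68), and HSPA4, an HSP70 exchange factor, fell from 35.6 ± 1.52 to 23.3 ± 0.815 FPKM. DNAJB1, another HSF1 target, had means of 35.9 and 38.0 FPKM and did not pass the test (adjusted p = 0.636).

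The list of endoplasmic reticulum chaperones and the unfolded protein response was called at shares near those of all genes, with 5 of 21 tested members higher (23.8%) and 8 lower (38.1%). HSPA5, which encodes the BiP chaperone, read 493, 512 and 563 FPKM in vector and 262, 264 and 254 FPKM in GPD1 libraries, a 2.01-fold lower mean without overlap (log2 fold change -1.003, adjusted p = 4.1e-08). EDEM1, which helps to clear misfolded glycoproteins, EIF2AK3, the sensor kinase PERK, and DNAJB9, a cochaperone of BiP, were lower by -1.11, -0.70 and -0.56. ATF6, a sensor of the same response, and PDIA3, a disulphide isomerase, were higher by 0.56 and 0.39.

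**Figure D1:**
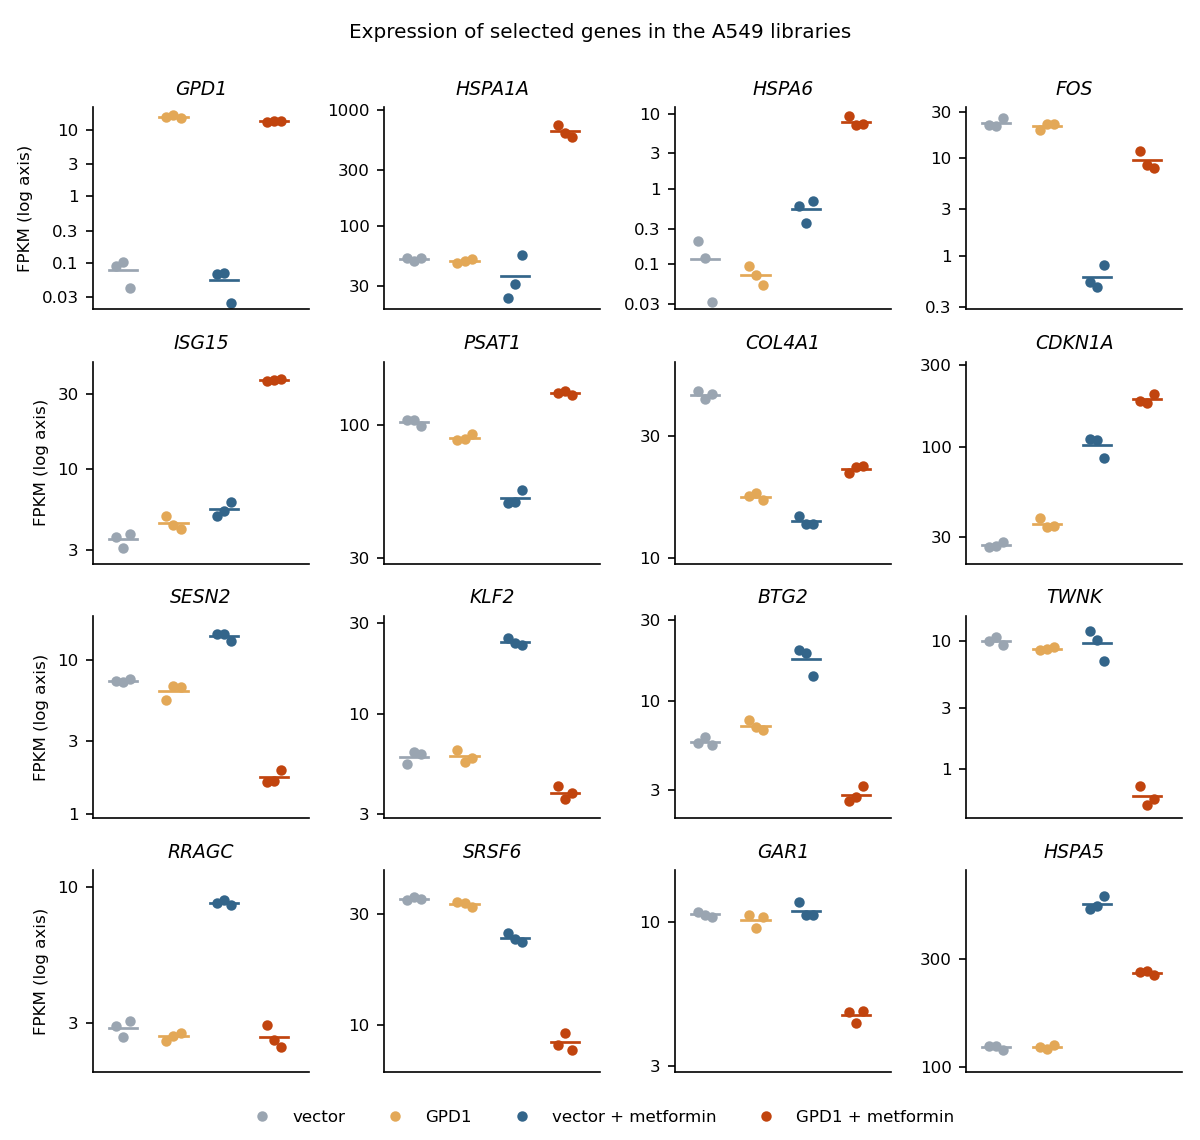
FPKM (log axis) of 16 genes in the 12 A549 libraries, 1 point per library with a bar at the group mean. For HSPA1A, HSPA6, FOS and ISG15 the 3 GPD1 libraries with metformin lie above the vector libraries with metformin, for SESN2, KLF2, BTG2, TWNK, RRAGC, SRSF6, GAR1 and HSPA5 they lie below, and the 2 groups without the drug lie close to each other for these genes.

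Partners of the enzyme in its shuttle changed by modest amounts. GPD2, the mitochondrial partner, rose from 4.49 ± 0.281 to 8.24 ± 0.0896 FPKM (1.83-fold, adjusted p = 1.8e-07), and it was also higher without the drug (log2 0.67 against 0.75 with it, interaction adjusted p = 0.331). The paralog GPD1L had means of 2.29 FPKM with vector and 1.39 FPKM with GPD1, and did not pass the test (adjusted p = 0.0994). The list of the glycerol-3-phosphate and malate-aspartate shuttles and lactate dehydrogenase also holds the aldolase gene ALDOA of glycolysis. Of its 13 tested genes, 7 were higher (53.8%) and 0 lower, beside 25.0% and 35.0% of all genes. ALDOA was 1 of the 7 (1.21-fold). GOT2, the mitochondrial aspartate aminotransferase, rose 1.51-fold, and LDHB, a lactate dehydrogenase subunit, 1.25-fold.

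Glycerolipid synthesis, which uses the product of GPD1, had no single direction. Of 19 tested members 5 were higher (26.3%) and 8 lower (42.1%), near the 25.0% and 35.0% of all genes. The acyltransferases that first acylate glycerol-3-phosphate did not share a direction. GPAT3 rose from 5.53 ± 0.314 to 12.1 ± 0.761 FPKM, while GPAT4 fell from 8.75 ± 0.638 to 3.84 ± 0.124 FPKM and GPAM from 1.07 ± 0.166 to 0.338 ± 0.0269 FPKM. LPIN2, a phosphatidate phosphatase, fell 1.65-fold, and PCYT1A, which limits phosphatidylcholine synthesis, 1.74-fold. AGPAT1, which adds the next acyl chain, rose 1.41-fold.

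Carbon metabolism was higher across most of its genes. In glycolysis 12 of 18 tested members were higher (66.7%) and 2 lower (11.1%), beside 25.0% and 35.0% of all genes. The list median was 0.43, or 0.48 above that of all genes. The monocarboxylate exporter SLC16A3 rose from 0.949 ± 0.114 to 6.21 ± 0.0610 FPKM, and enolase ENO1 from 324 ± 6.57 to 587 ± 14.99 FPKM. Hexokinase HK1 rose 1.66-fold. PFKFB3, which makes the activator fructose-2,6-bisphosphate, was the largest exception and fell from 53.4 ± 2.68 to 22.2 ± 2.43 FPKM (log2 fold change -1.23). SLC16A3 and HK1 were also higher without the drug, by 1.505 and 1.04.

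Of 12 tested genes of the pentose phosphate pathway and NADPH supply, 7 were higher (58.3%) and 1 lower (8.33%). Among all genes 25.0% were higher and 35.0% lower. TALDO1, the transaldolase of the pathway, read 41.0, 40.2 and 42.9 FPKM with vector and 69.8, 69.0 and 72.8 FPKM with GPD1, without overlap (1.70-fold). ME1 and PGD, which both make NADPH, rose 1.68-fold and 1.43-fold. In the tricarboxylic acid cycle 14 of 22 tested members were higher (63.6%) and 0 lower. They were led by OGDH, a subunit of oxoglutarate dehydrogenase, at 4.27 ± 0.391 against 10.01 ± 0.467 FPKM (2.34-fold). Fumarase FH and the succinate dehydrogenase subunit SDHC rose 1.47-fold and 1.503-fold. Fatty acid synthesis had 11 of 15 members higher (73.3%) and 1 lower (6.67%). Among those higher were ACLY, which makes cytosolic acetyl-CoA (50.3 to 81.1 FPKM), the desaturase FADS2 (2.34-fold) and the acyl-CoA synthetase ACSL3 (2.56-fold).

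NAD metabolism had 4 of 8 tested members higher (50%) and 2 lower (25%), beside 25.0% and 35.0% of all genes. NAMPT, which limits the rate of NAD+ salvage, read 22.8, 25.4 and 26.9 FPKM with vector and 67.7, 68.2 and 65.8 FPKM with GPD1, without overlap (2.69-fold, adjusted p = 1.8e-08). It was higher still relative to vector without the drug (log2 1.93 against 1.40, interaction adjusted p = 4.0e-04). The NAD+-dependent deacetylase SIRT1 fell from 9.26, 10.4 and 10.4 FPKM to 4.11, 3.75 and 3.07 FPKM (2.75-fold), whereas without the drug it differed by 0.32 (interaction adjusted p = 3.6e-06).

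Nuclear and mitochondrial genes of the respiratory chain that were called mostly had opposite directions. Of 37 nuclear subunits of complex I, 19 were higher (51.4%), 1 was lower (2.70%) and 17 were not called. Of 34 nuclear subunits of complexes III to V, 22 were higher (64.7%), 1 was lower (2.94%) and 11 were not called. Among all genes 25.0% were higher and 35.0% lower. The gains were small, such as 1.47-fold for NDUFB11 and 1.496-fold for NDUFC2 of complex I and 1.35-fold for UQCRH of complex III. The list medians were 0.21 and 0.32, or 0.26 and 0.37 above that of all genes. By contrast, 11 of the 13 protein-coding genes of the mitochondrial genome were lower (84.6%) and none higher, with a median of -0.99. TWNK, the nuclear gene of the mitochondrial DNA helicase Twinkle, read 11.997, 10.1 and 6.94 FPKM with vector and 0.747, 0.525 and 0.587 FPKM with GPD1, a 15.6-fold lower mean (log2 fold change -2.69, adjusted p = 8.9e-08).

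The mitochondrial genes differed widely among themselves. MT-ND3, a complex I subunit, read 399, 322 and 227 FPKM with vector and 55.4, 55.6 and 57.3 FPKM with GPD1, so that every GPD1 library was below every vector library. MT-ND1 fell 4.42-fold, MT-ND5 3.15-fold and the cytochrome oxidase gene MT-CO3 1.70-fold. MT-ND4 and MT-ND4L, which lie on 1 transcript, had means of 2933 against 2875 and 3319 against 3029 FPKM and did not pass the test (adjusted p = 0.643 and 0.0620). MT-CYB was listed at 191, 0 and 0 FPKM in the 3 GPD1 libraries beside 240.1, 229 and 233 FPKM in the vector libraries. An exact 0 in such a table can be a failed estimate, so no fold is given, and its call was lost under several alternatives. Of these 13 genes, 10 had a called and negative interaction, and without the drug 1 was lower.

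**Figure D2:**
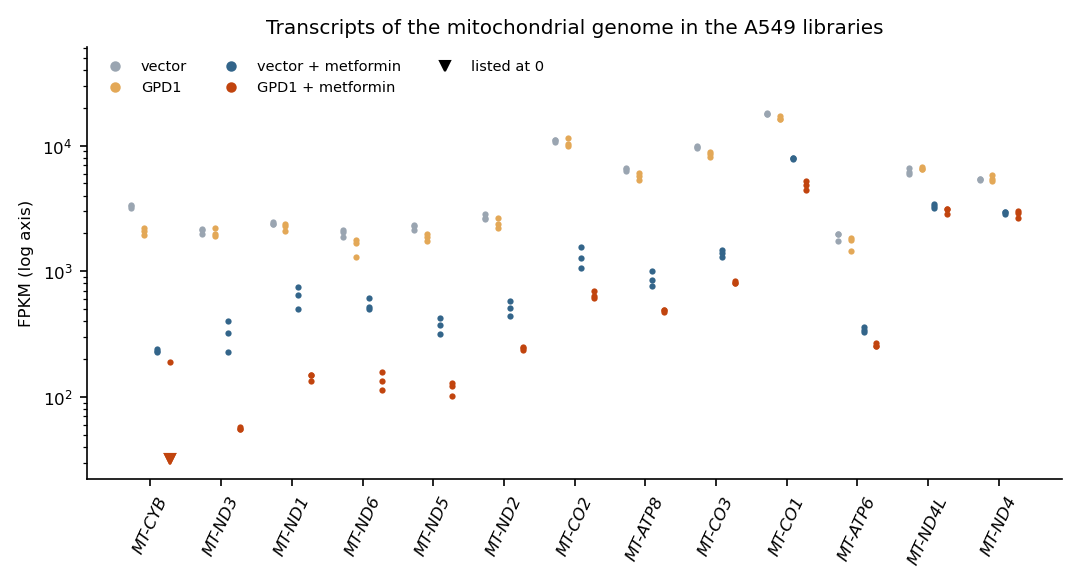
FPKM (log axis) of the 13 protein-coding genes of the mitochondrial genome in the 12 A549 libraries, with triangles for libraries listed at 0. With metformin the GPD1 libraries lie below the vector libraries for all but MT-ND4, and both groups without the drug lie above them.

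Nutrient sensing genes were mostly lower. In the list of mTORC1 and AMPK control, 16 of 24 tested members were lower (66.7%) and 4 higher (16.7%), beside 35.0% and 25.0% of all genes. Their median was -0.44 (-0.39 relative to all genes). Without the drug 1 was lower and 0 were higher, and the interaction was called negative for 15 members and positive for 1, beside 26.8% and 19.1% of all genes. SESN2 (Sestrin 2, chr1:28259527-28282491), a leucine sensor and stress-induced inhibitor of mTORC1, read 14.7, 14.9 and 13.3 FPKM with vector and 1.63, 1.66 and 1.93 FPKM with GPD1. The groups lay wide apart, with an 8.24-fold lower mean and a log2 fold change of -2.48 ± 0.07 (adjusted p = 3.3e-09).

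RRAGC and RRAGA encode Rag GTPases, which bring mTORC1 to the lysosome, and FLCN encodes folliculin, which acts on them. RRAGC read 8.68, 8.90 and 8.50 FPKM with vector and 2.96, 2.59 and 2.43 FPKM with GPD1, and FLCN 8.91, 9.66 and 10.7 FPKM and 2.94, 2.90 and 2.53 FPKM. Neither pair of groups overlapped, and the means were 3.27-fold and 3.50-fold lower. RRAGA fell 1.94-fold and the sestrin SESN1 3.28-fold. Of the AMPK genes, the regulatory subunits PRKAB1 and PRKAG2 were lower by -0.76 and -0.64 and the catalytic PRKAA1 by -0.32. The inhibitory complex genes TSC1 and TSC2 were lower by -0.74 and -0.32. The mTOR kinase gene MTOR itself was higher by 0.14 (adjusted p = 0.0158), little more than the 0.10 by which rescaling moved the all-gene median. DDIT4, an mTORC1 inhibitor with means of 394 and 427 FPKM, did not pass the test (adjusted p = 0.108).

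Stress regulators of the integrated stress response were lower in part. Of 14 tested genes of the ATF4 list 7 were lower (50%) and 3 higher (21.4%), beside 35.0% and 25.0% of all genes. The list median was -0.14, or -0.09 relative to all genes, and its sign turned with upper-quartile factors (0.004). ATF4 itself fell from 244 ± 8.02 to 164 ± 2.005 FPKM, its targets DDIT3 (CHOP) from 33.9 ± 2.07 to 15.8 ± 3.63 and TRIB3 from 34.4 ± 0.229 to 14.5 ± 0.706 FPKM. PPP1R15A (GADD34), which restores translation, went the other way, from 144, 168 and 194 FPKM to 347, 358 and 347 FPKM (2.07-fold). PSAT1, which makes serine and is likewise an ATF4 target, read 49.5, 49.9 and 55.6 FPKM with vector and 133, 136 and 131 FPKM with GPD1, without overlap (2.58-fold, adjusted p = 8.1e-09). It was not higher without the drug, where the log2 difference was -0.20, and the interaction was called (adjusted p = 3.0e-07). The amino acid transporter SLC38A2 fell 2.13-fold, and the alanyl-tRNA synthetase AARS 1.63-fold.

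Targets of p53 were lower more often than higher, 12 against 4 of 23 tested (52.2% and 17.4%), beside 35.0% and 25.0% of all genes. Their median was -0.15, or -0.10 relative to all genes, and came as near 0 as -0.01 under another scaling. BTG2, an antiproliferative gene, read 19.8, 19.1 and 13.99 FPKM with vector and 2.58, 2.74 and 3.16 FPKM with GPD1, a 6.25-fold lower mean (log2 fold change -2.27, adjusted p = 5.7e-08). TNFRSF10B, a death receptor, fell from 65.4 ± 5.05 to 27.7 ± 0.620 FPKM. CDKN1A, the p21 inhibitor of cell cycle kinases, was an exception and rose from 111, 109.5 and 87.0 FPKM to 186, 181 and 204 FPKM (1.85-fold). Of 14 tested BCL2 family genes 4 were higher and 4 lower (28.6% each), near the shares of all genes. Among them the pro-apoptotic BBC3 (PUMA) and BMF fell from 51.2 ± 2.54 to 28.4 ± 1.21 and from 2.93 ± 0.0915 to 0.256 ± 0.262 FPKM. BAD, likewise pro-apoptotic, rose from 9.92 ± 0.614 to 16.5 ± 0.0203 FPKM.

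**Figure D3:**
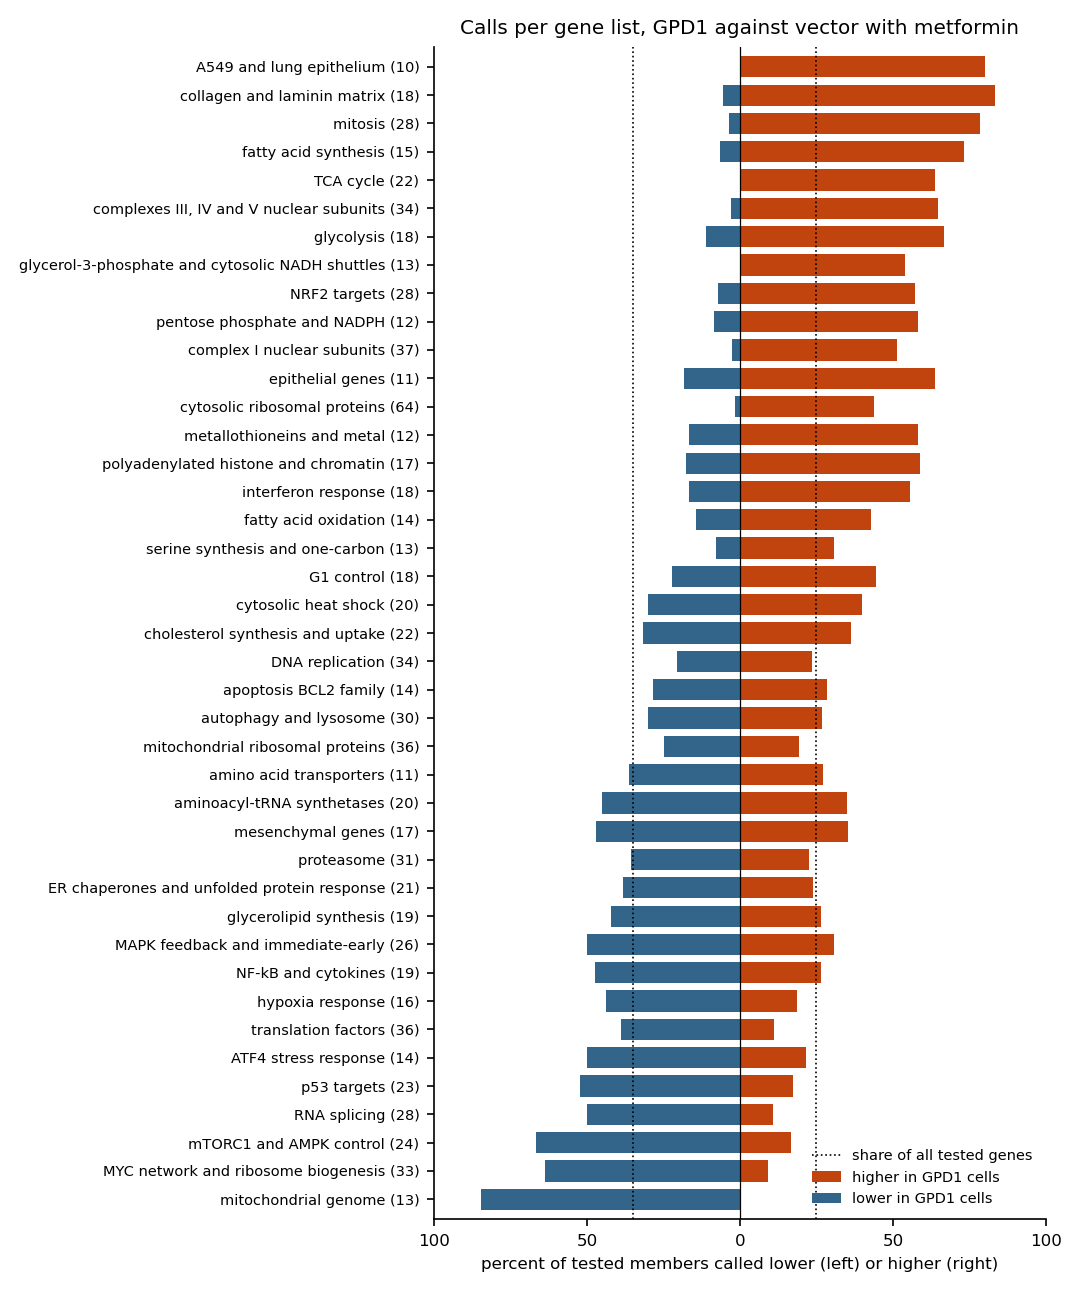
Percent of tested members called higher (right) or lower (left) in GPD1 cells with metformin, for lists with at least 10 tested genes (number in brackets). Dotted lines mark the 25.0% higher and 35.0% lower of all 12607 genes, and the bars run from mitosis, matrix and carbon metabolism, mostly higher, to mTORC1 control, ribosome biogenesis and the mitochondrial genome, mostly lower.

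Antioxidant genes under NRF2 were higher with and without the drug. With it 16 of 28 were higher (57.1%) and 2 lower (7.14%), beside 25.0% and 35.0% of all genes. Without it 14 were higher (50%) and 3 lower (10.7%), beside 9.99% and 11.3% of all genes. The glutathione peroxidase GPX2 read 5.13, 3.60 and 3.81 FPKM with vector and 33.5, 29.8 and 34.5 FPKM with GPD1, and its log2 difference was 2.71 with the drug and 2.75 without (interaction adjusted p = 0.841). GCLM, for glutathione synthesis, rose 2.02-fold and the aldo-keto reductase AKR1C3 1.87-fold. HMOX1, heme oxygenase, fell 1.502-fold. Abundant genes of detoxification and iron storage rose in the same libraries: ALDH1A1 from 1435 ± 37.2 to 3269.8 ± 99.4 FPKM and the ferritin light chain FTL from 10949.7 ± 1038 to 14881 ± 145 FPKM.

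Immediate-early and MAPK feedback genes were divided, with 8 of 26 higher (30.8%) and 13 lower (50%), beside 25.0% and 35.0% of all genes. FOS, a subunit of AP-1, read 0.538, 0.477 and 0.816 FPKM with vector and 11.999, 8.62 and 8.02 FPKM with GPD1, without overlap (log2 fold change 2.70, adjusted p = 5.7e-08). Both groups lay below the libraries without the drug, which read 22.1, 21.6 and 25.6 FPKM with vector and 19.4, 22.7 and 22.4 FPKM with GPD1. The zinc-finger factor KLF2 read 25.1, 23.7 and 23.1 FPKM with vector and 4.16, 3.56 and 3.85 FPKM with GPD1, the reverse order (6.21-fold lower, adjusted p = 2.8e-09). KLF4 fell from 2.86 ± 0.231 to 0.524 ± 0.0727 FPKM, and the ERK feedback inhibitor SPRY4 from 3.54 ± 0.340 to 1.21 ± 0.112 FPKM. DUSP5, a nuclear ERK phosphatase, rose 1.48-fold. JMY, a p53 cofactor and actin nucleator, and ELOA, the elongin A subunit, were among the largest falls, from 16.1 ± 1.8001 to 2.31 ± 0.160 and from 12.7 ± 0.379 to 1.92 ± 0.349 FPKM. MYC itself was uneven, at 20.7, 20.7 and 26.2 FPKM with vector and 1.18, 18.2 and 1.20 FPKM with GPD1. Its call (adjusted p = 0.0278) was lost when some libraries were left out, so no direction is drawn from it.

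Genes of ribosome assembly were mostly lower. In the list of the MYC network and ribosome biogenesis 21 of 33 tested members were lower (63.6%) and 3 higher (9.09%), beside 35.0% and 25.0% of all genes. Their median was -0.47 (-0.42 relative to all genes). GAR1 and NOP56, proteins of the small nucleolar particles that modify ribosomal RNA, fell from 11.0 ± 0.725 to 4.59 ± 0.249 and from 4.23 ± 0.250 to 1.57 ± 0.156 FPKM. POLR1C, a subunit of RNA polymerases I and III, fell 2.94-fold and NOP16, a nucleolar assembly protein, 2.42-fold. NHP2, of the same particles as GAR1, rose 1.32-fold. The ribosomal proteins themselves went the other way by small amounts: 28 of 64 cytosolic ones were higher (43.8%) and 1 lower (1.56%), with a median of 0.19. RPS4X rose from 490.0 ± 25.8 to 634 ± 14.7 FPKM and RPL24 from 186 ± 8.56 to 225 ± 5.18 FPKM. Without the drug 0 of them were higher and 12 lower. Of 36 translation factors 14 were lower (38.9%) and 4 higher (11.1%), beside 35.0% and 25.0% of all genes. The share lower was thus near that of all genes, and the sign of the list median turned across the scalings (-0.19 to 0.04). Among those that fell were EIF3A (1.69-fold) and EEF2K, the kinase that inhibits elongation (2.37-fold).

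Of 28 tested splicing genes 14 were lower (50%) and 3 higher (10.7%), beside 35.0% and 25.0% of all genes. Their median was -0.26. SRSF6, an SR protein, read 24.8, 23.4 and 22.7 FPKM with vector and 8.22, 9.23 and 7.83 FPKM with GPD1, without overlap (2.80-fold lower). U2AF2, which binds the polypyrimidine tract, fell 2.23-fold, while HNRNPA2B1 rose from 11.4 ± 1.07 to 22.7 ± 0.554 FPKM. Without the drug 1 splicing gene was lower and 4 were higher, and SRSF6 differed by -0.07 (interaction adjusted p = 9.5e-07). Subunits of the proteasome had 11 lower and 7 higher of 31 (35.5% and 22.6%), shares near those of all genes. PSMD12 of the lid was one of those that fell, from 6.997 ± 0.525 to 2.50 ± 0.134 FPKM.

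Mitotic genes were higher in GPD1 cells under metformin. Of 28 tested members 22 were higher (78.6%) and 1 lower (3.57%), the median being 0.34 (0.39 above that of all genes). The spindle checkpoint kinase BUB1 rose from 4.02, 3.98 and 4.07 FPKM to 9.10, 9.34 and 9.61 FPKM, without overlap (2.32-fold). The spindle motor KIF11 rose 1.96-fold and the topoisomerase TOP2A from 55.0 ± 2.09 to 82.7 ± 4.29 FPKM. Without the drug 1 mitotic gene was higher and 5 were lower, and the interaction was called positive for 22 members. For BUB1, KIF11 and TOP2A both metformin groups lay below the untreated ones, and TOP2A averaged 158 FPKM with vector and 121 FPKM with GPD1 without the drug. Genes of DNA replication were not of 1 direction, 8 higher and 7 lower of 34 (23.5% and 20.6%), beside 25.0% and 35.0% of all genes. PCNA, the sliding clamp, rose 1.55-fold and the flap nuclease FEN1 fell 3.58-fold. In G1 control 8 of 18 tested members were higher (44.4%) and 4 lower (22.2%), beside 25.0% and 35.0% of all genes. Cyclin CCND1 rose 1.62-fold, and the inhibitor CDKN1B (p27) and the factor E2F3 fell 2.16-fold and 3.19-fold.

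**Figure D4:**
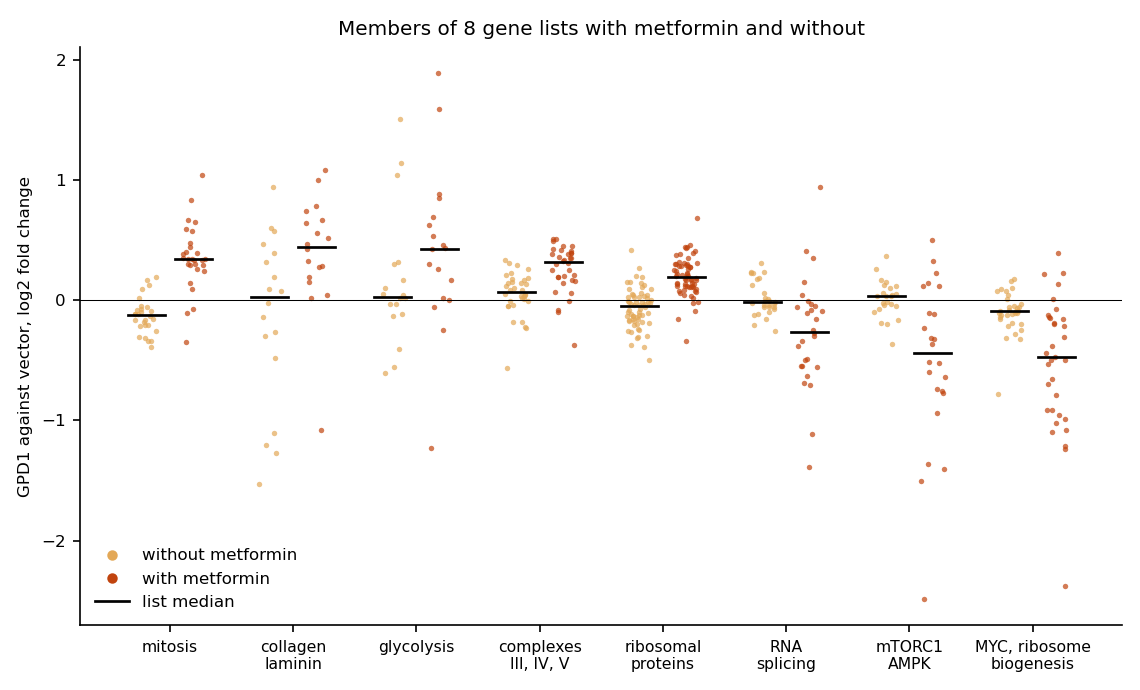
Log2 fold change of GPD1 against vector for each tested member of 8 gene lists, without metformin (left of each pair) and with it (right), with a bar at the list median. With the drug the medians of mitosis, matrix, glycolysis, complexes III to V and ribosomal proteins lie above 0 and those of splicing, mTORC1 control and ribosome biogenesis below 0, while without it they lie between -0.13 and 0.07.

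Matrix and secretory genes were mostly higher. Of 18 tested collagen and laminin genes 15 were higher (83.3%) and 1 lower (5.56%). Their median was 0.45 (0.50 above that of all genes). Without the drug 7 of them were higher (38.9%) and 8 lower (44.4%), beside 9.99% and 11.3% of all genes. Of 16 mucins and secretory genes only 5 were tested, 4 of them higher with the drug and 5 without it. COL5A2 rose from 7.77 ± 0.0194 to 16.7 ± 1.82 FPKM and the laminin LAMB3 from 2.70 ± 0.171 to 6.85 ± 0.402 FPKM, while COL12A1 fell from 3.92 ± 0.359 to 1.33 ± 0.0921 FPKM. MUC5AC, a gel-forming airway mucin, read 4.64, 4.23 and 4.68 FPKM with vector and 97.7, 91.0 and 92.4 FPKM with GPD1, and SPDEF, a factor of secretory cells, rose 6.71-fold. The groups were far apart for MUC5AC (20.8-fold, log2 fold change 4.10), and the log2 difference without the drug was 4.04 (interaction adjusted p = 0.550). Of mesenchymal genes 6 were higher and 8 lower of 17 (35.3% and 47.1%), beside 25.0% and 35.0% of all genes. The YAP targets CYR61 and CTGF fell 2.09-fold and 2.64-fold, fibronectin FN1 rose 1.78-fold, and the protease gene MMP2 was listed at 0 in the 3 GPD1 libraries beside 2.46, 2.55 and 2.31 FPKM.

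Other large rises followed no list. TNS4 (tensin 4, a focal adhesion protein) read 3.76, 2.83 and 2.72 FPKM with vector and 48.9, 46.3 and 50.7 FPKM with GPD1, and CDA, cytidine deaminase, 1.82, 1.97 and 2.43 FPKM and 20.5, 19.2 and 19.9 FPKM. The groups were apart for both genes, 15.7-fold and 9.59-fold. TMEM265 read 3.81, 13.2 and 17.1 FPKM with vector and 89.6, 72.2 and 87.6 FPKM with GPD1, where 1 vector library was well below the other two. NPY4R and NPY4R2, near-identical copies of a neuropeptide Y receptor gene whose reads may be divided between them, had means of 2.14 against 41.0 FPKM and 2.08 against 38.1 FPKM. SENP3-EIF4A1 is an annotated readthrough of neighbouring genes, listed at 26.6, 26.0 and 13.3 FPKM with vector and 0, 5.37 and 0 FPKM with GPD1, and shares its reads with them.

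Interferon-stimulated genes were higher in part, 10 of 18 tested (55.6%) against 3 lower (16.7%), beside 25.0% and 35.0% of all genes. ISG15, a ubiquitin-like protein, read 4.97, 5.35 and 6.15 FPKM with vector and 36.0, 36.6 and 37.1 FPKM with GPD1, without overlap (6.67-fold, adjusted p = 5.3e-09). IFITM2, a membrane restriction factor, and OAS3, a sensor of double-stranded RNA, rose 3.002-fold and 2.05-fold, and IRF9, part of the factor that drives these genes, fell 1.84-fold. Of the NF-kB and cytokine list 5 of 19 were higher (26.3%) and 9 lower (47.4%). The chemokine gene CXCL1 fell from 2.67 ± 0.354 to 0.453 ± 0.164 FPKM (5.90-fold), beside means of 14.3 and 2.02 FPKM without the drug (7.07-fold).

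Mitochondrial tRNA genes had the largest falls by log2 fold change. All 22 tested mitochondrial tRNA genes were lower, with a median log2 fold change of -1.86. MT-TY, the tyrosine tRNA, read 665, 585 and 402 FPKM with vector and 6.23, 12.3 and 14.7 FPKM with GPD1, and MT-TC, the cysteine tRNA, 994, 876 and 598 FPKM and 11.4, 20.1 and 22.5 FPKM. These genes have a median of 69 bases and the libraries were made from polyadenylated RNA, so the values give fragments that touch them, not mature tRNA. Beside 35.0% lower and 25.0% higher of all genes, 68 of 149 tested small nucleolar RNAs were lower (45.6%) and 13 higher (8.72%). SNORD14C, SNORD14D and SNORD14E, which lie in introns of HSPA8, were among the latter; SNORD14E read 0.720, 0.655 and 2.43 FPKM with vector and 33.8, 35.3 and 30.4 FPKM with GPD1. HSPA8, the constitutive HSC70 gene, had means of 46.4 and 59.6 FPKM (log2 fold change 0.36, adjusted p = 0.0181). The snoRNA host genes SNHG3, SNHG1 and SNHG17 fell 2.38-fold, 2.35-fold and 1.95-fold; they and the HSPA8 values were picked after the values were seen.

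How much of this depended on metformin was read from the interaction, the difference between the conditions in the GPD1 against vector contrast. It was called for 5791 genes (45.9%), 2407 positive and 3384 negative. Without the drug 2688 genes (21.3%) were called, with a median absolute log2 fold change of 0.13. Of the genes called with the drug, 3962 were not called without it and had a called interaction. In the same direction 1475 genes were called in both conditions, which is 19.5% of those called with the drug and 54.9% of those called without it. Across the 12607 genes the log2 fold changes of the conditions, which share no library, correlated with Pearson's r = 0.306 and Spearman's rho = 0.221. Genes are not independent replicates, and both axes come from the same pair of cell lines.

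**Figure D5:**
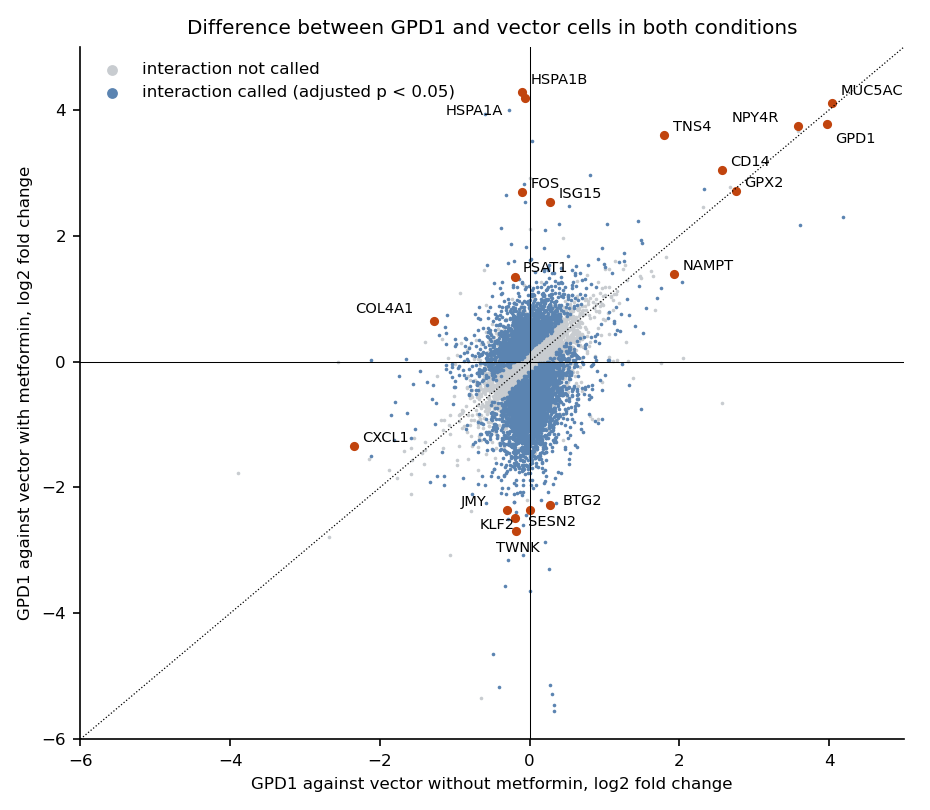
Log2 fold change of GPD1 against vector without metformin (x axis) and with it (y axis), 1 point per tested gene, blue where the interaction was called, and with the line of equal change dotted. MUC5AC, GPX2, NPY4R and GPD1 lie near the dotted line, HSPA1A, HSPA1B, FOS and ISG15 lie high near x = 0, and SESN2, KLF2, BTG2 and TWNK lie low near x = 0.

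In opposite directions 516 genes were called, 254 higher with the drug and lower without it and 262 the reverse. The collagens COL4A1 and COL4A2 of the basement membrane, which share a promoter region, are an example, named here after their values were seen. COL4A1 read 14.5, 13.6 and 13.5 FPKM with vector and 21.5, 22.6 and 22.8 FPKM with GPD1 under metformin, but 44.9, 41.7 and 43.5 FPKM and 17.4, 17.8 and 16.8 FPKM without it. The order of the groups thus turned over, with no overlap in either condition (log2 0.65 against -1.27, interaction adjusted p = 5.4e-08). ELF3, an epithelial transcription factor, turned the other way: 84.7, 94.6 and 96.3 FPKM with vector and 46.7, 46.6 and 46.5 FPKM with GPD1 under the drug, 14.6, 14.6 and 15.7 FPKM and 24.4, 22.6 and 22.03 FPKM without it. IRS2, an insulin receptor substrate, likewise averaged 17.9 FPKM with vector and 8.64 FPKM with GPD1 under the drug and 3.80 and 6.75 FPKM without it.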

How the data were processed

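RNA was sequenced from A549 cells in 4 groups of 3 libraries, and the 6 with metformin carry the comparison. Libraries were made from polyadenylated RNA and the labels' protocols state no strand, so reads of antisense neighbours may be mixed. CASAVA 1.8, HISAT2 2.1.0, edgeR and the build GRCh38 are named in the submitters' processing notes, and the program behind the values is not given in the sources used here. As deposited by the authors, there is 1 table of FPKM, although its header names no unit: low values multiplied by GENCODE release 29 exon lengths are whole steps within 0.02 for 64.6% to 69.4% of genes, and RPKM would look the same. From these values log2(FPKM + 1) was computed for genes that averaged 1 FPKM or more and fitted with limma 3.58.1 (R 4.3.3, trend, 12 libraries, 4 group means), with Benjamini-Hochberg adjustment over 12607 genes and a threshold of 0.05. Fold values are ratios of mean FPKM, and log2 fold changes understate low genes. Alternatives were other scalings, pseudocounts, filters, a replicate block and each library left out. Named genes were up to 12 protein-coding genes a direction by fold (mean of at least 5 FPKM, libraries not overlapping), 6 by difference in FPKM, 4 noncoding, 6 by interaction, and up to 4 and 2 per list. The comparison, its genes and the 47 lists were chosen with earlier results of these data known. Y-linked genes and a few others are not reported here.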

Additional observations from a re-analysis of the deposited data

Results flagged for a closer look

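The difference between GPD1 and vector cells changed with metformin for 5791 genes by limma's interaction test. The 6 largest in each direction among protein-coding genes that averaged 5 FPKM or more follow, and noncoding genes such as MT-TY (-5.88) and SNORD14D (4.53) went beyond them. Positive differences mean that GPD1 minus vector was higher under the drug than without it. They were 4.38 log2 units for HSPA1B, 4.25 for HSPA1A, 2.80 for FOS, 2.26 for ISG15, 2.15 for TMEM265 and 1.92 for COL4A1. Negative differences were -3.23 for SENP3-EIF4A1, -2.55 for BTG2, -2.52 for TWNK, -2.38 for MT-ND3, -2.37 for KLF2 and -2.29 for SESN2. For BTG2 the means without the drug were 5.76 FPKM with vector and 7.17 FPKM with GPD1, and for KLF2 5.96 and 5.98 FPKM. The interaction has adjusted p-values of 4.3e-06 for HSPA1B, 2.0e-06 for FOS, 5.4e-08 for COL4A1 and 3.4e-07 for SESN2, and 0.0278 for the readthrough SENP3-EIF4A1, 2 of whose GPD1 libraries are listed at 0. Groups of 3 libraries are too small for the test of single libraries that stand apart.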

How the results depend on the processing

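The number of genes called under metformin, 7566, lay between 6962 and 7509 when 1 library was left out, with the lowest count without the third GPD1 library with metformin. Median-ratio factors gave 7821, upper-quartile factors 7798, and it was 7320 with totals that leave out mitochondrial genes and 7589 with a pseudocount of 0.1. A requirement of at least 1 log2 unit left 949 genes under metformin (191 higher and 758 lower), 123 without the drug and 863 for the interaction. The share of calls that were higher was 41.7% as deposited, 51.1% and 54.4% with the factors named, and 54.3% and 55.0% with the length or GC trend removed. A replicate block gave 7446 genes, but same-numbered libraries did not deviate together (correlations of 0.054, 0.000 and -0.021 between vector and GPD1 libraries with the drug), so the numbers do not pair them. Of 47 list medians, 13 took both signs across the scalings, the largest of them 0.138 from 0 as deposited, and 14 across all alternatives. Of those at least 0.1 from 0 as deposited, the sign turned for the ATF4 list (0.004 with upper-quartile factors), amino acid transporters (0.028 with the same factors, 0.062 without the length trend, 0.081 without the GC trend) and glycerolipid synthesis (0.051 without the length trend); beyond the rescaling itself the cause was not tested. Of 276 named genes, 252 kept their call in all 23 alternatives, and MYC and MT-CYB were among the 24 that did not. The pseudocount of 0.1 moved 16 of 187 named changes of at least 0.5 log2 units by over 1.5 times, GPD1 among them (6.48). With 13.3 to 18.0 M fragments a library, 1 fragment on 1 kb is worth 0.0556 to 0.0752 FPKM, which limits genes near 1 FPKM.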

Other observations

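Some further gene lists are given beside the 25.0% higher and 35.0% lower of all genes. Of 17 tested genes for polyadenylated histones and chromatin, 10 were higher (58.8%) and 3 lower (17.6%), with a median log2 fold change of 0.41. The linker histone gene H1FX rose from 241 ± 7.09 to 339.6 ± 3.46 FPKM (mean ± SD, n = 3) and HIST1H2BD from 1.70 ± 0.372 to 4.94 ± 0.722 FPKM, while the variant gene H2AFZ fell 1.63-fold. Hypoxia genes had 7 lower and 3 higher of 16 (43.8% and 18.8%). The demethylase KDM3A fell from 5.11 ± 0.133 to 1.87 ± 0.142 FPKM, and CA12, a carbonic anhydrase, rose 1.53-fold. In cholesterol synthesis and uptake 8 of 22 were higher (36.4%) and 7 lower (31.8%), near the shares of all genes. The zinc exporter SLC30A1 fell from 19.4 ± 1.44 to 7.43 ± 0.412 FPKM and the lysosomal membrane gene LAMP1 rose 1.95-fold, while the autophagy and lysosome list had 8 higher and 9 lower of 30 (26.7% and 30%), likewise near all genes.

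For some of the motifs searched, promoter letters differed between the genes with the largest changes. The E-box CACGTG, which reads the same on both strands, occurred in 2 of 106 promoters of genes higher by at least 1 log2 unit (1.89%) and in 58 of 450 of genes lower by as much (12.9%), beside 10.6% of the 8335 tested promoters. TATAAA, searched on both strands, occurred in 16.0% of the former and 5.78% of the latter, beside 4.88% of tested promoters. Not every motif searched differed in these sets: GAANNTTC occurred in 8.49% and 4.22%, but CCAAT in 37.7% and 36.7%. These are counts of letters in windows of 250 bases before to 50 after the start, not sites.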
